A study of Homo sapiens with 12 samples.

Results

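The genes described here encode the machinery that brings proteins into mitochondria, the chaperones that fold them and the MICOS complex that shapes the inner membrane. They were chosen by name and by no rule on a measured value, though earlier results of these data were known. The members were the protein-coding genes whose symbol begins with TIMM or TOMM, 27 in number, and 17 others named one by one, namely HSPA9, HSPD1, HSPE1, GRPEL1, PAM16, DNAJC15, DNAJC19, CHCHD3, CHCHD6, MICOS10, MICOS13, APOO, APOOL, IMMT, SAMM50, PMPCA and PMPCB. All 44 were among the 28747 gene identifiers of the count table. By role they were 10 genes of the outer membrane TOM complex and its relatives and 6 of the inner membrane TIM23 channel. There were 6 of the import motor, 2 of the TIM22 translocase, 6 small TIM chaperones and 2 of the matrix chaperonin. The rest were 2 of the presequence peptidase, 1 of the outer membrane assembly machinery (SAM), 7 of MICOS and 2 others included by symbol.

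RNA-seq was performed on DU145 cells, a line established from human prostate cancer that is castration-resistant. The groups were adherent control cells (shCtrl), adherent cells with a stable knockdown hairpin (shSigma), tumor spheres of shCtrl cells and tumor spheres of shSigma cells, with 3 biological replicates in each and 12 libraries in all. Every group carried a lentiviral hairpin, and the methods describe the knockdown lines as made by infection with shRNA particles and selection with puromycin. Cells grew adherent in medium with serum or as spheres on a non-adhesive coating with growth factors, so culture and medium changed together. The hairpin and its integration sites cannot be told apart from the knockdown itself within this design. Whether the sequenced lines derive from single clones is not given in the sources used here. The libraries held 16472722 to 26957777 counts.

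Most mitochondrial proteins are made in the cytosol and enter through the TOM complex of the outer membrane. Precursors with a presequence then pass the TIM23 channel, are pulled into the matrix by the motor around mortalin (HSPA9), lose the presequence to the peptidase PMPCA/PMPCB and fold with the chaperonin HSPD1/HSPE1. Carriers travel with the small TIM chaperones to the TIM22 translocase, barrel proteins are inserted by SAM, and MICOS holds the cristae junctions and contacts SAM.

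Of the epithelial markers, KRT8 and KRT18 were at 202 CPM (counts scaled to the effective library size) or more in every library. In adherent cells KRT8, KRT18 and KRT19 were higher and EPCAM and CDH1 lower with shSigma, and the sum of the 5 markers went from 878 to 964 CPM in shCtrl to 1141 to 1453 CPM in shSigma libraries. In spheres 4 of the 5 were lower and none higher, and the sum went from 2285 to 2349 CPM to 897 to 954 CPM. EPCAM was at 213 to 264 CPM in adherent shCtrl and 29.7 to 32.4 CPM in adherent shSigma libraries, and CDH1 at 678 to 770 CPM in shCtrl spheres and 23.9 to 30.1 CPM in shSigma spheres. The part of these markers in the results was not tested. KLK3 and KLK2, markers of luminal prostate cells, had at most 2 counts in a library, and the summed immune markers and the summed endothelial markers reached at most 1.19 and 0.905 CPM. The fibroblast gene COL1A1 lay between 3.23 and 24.9 CPM and was highest in shCtrl spheres, and its part in the results was not tested.

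After knockdown in adherent cells more of the members were lower than higher. Of the 40 members that could be tested, 19 were lower and 4 higher in edgeR's quasi-likelihood test (adjusted p under 0.05), against 27.7% of all 13764 genes tested that were lower and 22.3% that were higher (50.0% called in all). Signed values here and throughout are log2 fold changes, given as value ± SE, and those of the knockdown are shSigma minus shCtrl. The median log2 fold change of the members was -0.27, beside -0.01 over all genes tested. With an offset for GC content, an alternative chosen after seeing the data, 17 were lower and 7 higher. The median was then -0.18, beside 0.003 over all genes tested. The shares of all genes called with this offset are not given here. In tumor spheres 17 of 39 members were lower and 8 higher, against 30.9% and 30.2% of 13774 genes (61.1% in all), and the median was -0.06 beside 0.0015. The shares of tested members called, 57.5% and 64.1%, were close to those of all genes, while the split between lower and higher in adherent cells was more one-sided than that of all genes.

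The 3 shSigma and 3 shCtrl libraries did not overlap for 25 of 40 members in adherent cells (57.9% of all genes tested) and for 26 of 39 in spheres (66.8%). In both cultures 15 members were called lower: TOMM34, TOMM40L, TIMM17A, TIMM21, HSPA9, DNAJC19, HSPD1, HSPE1, TIMM8B, TIMM9, TIMM10, SAMM50, IMMT, MICOS10 and TIMMDC1. In both cultures 4 were called higher, DNAJC15, PMPCA, PMPCB and TIMM10B. No member was called in opposite directions, and 10 were called in neither culture. These counts are of 39 members tested in both cultures, and of the 13391 genes tested in both, 17.7% were lower in each culture, 14.2% higher in each, 4.12% in opposite directions and 24.9% in neither. DNAJC15 passed the filter on low counts through its shSigma libraries alone, so its place among the higher members is a description and no test. An absolute log2 fold change over 1 was reached by 3 members in adherent cells, HSPA9, TIMM10 and DNAJC15, and by DNAJC15 in spheres, beside 13.7% and 13.1% of all genes tested. The RNA came from whole cultures, so fewer cells with a transcript and less of it in each cell cannot be told apart.

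**Figure D1:**
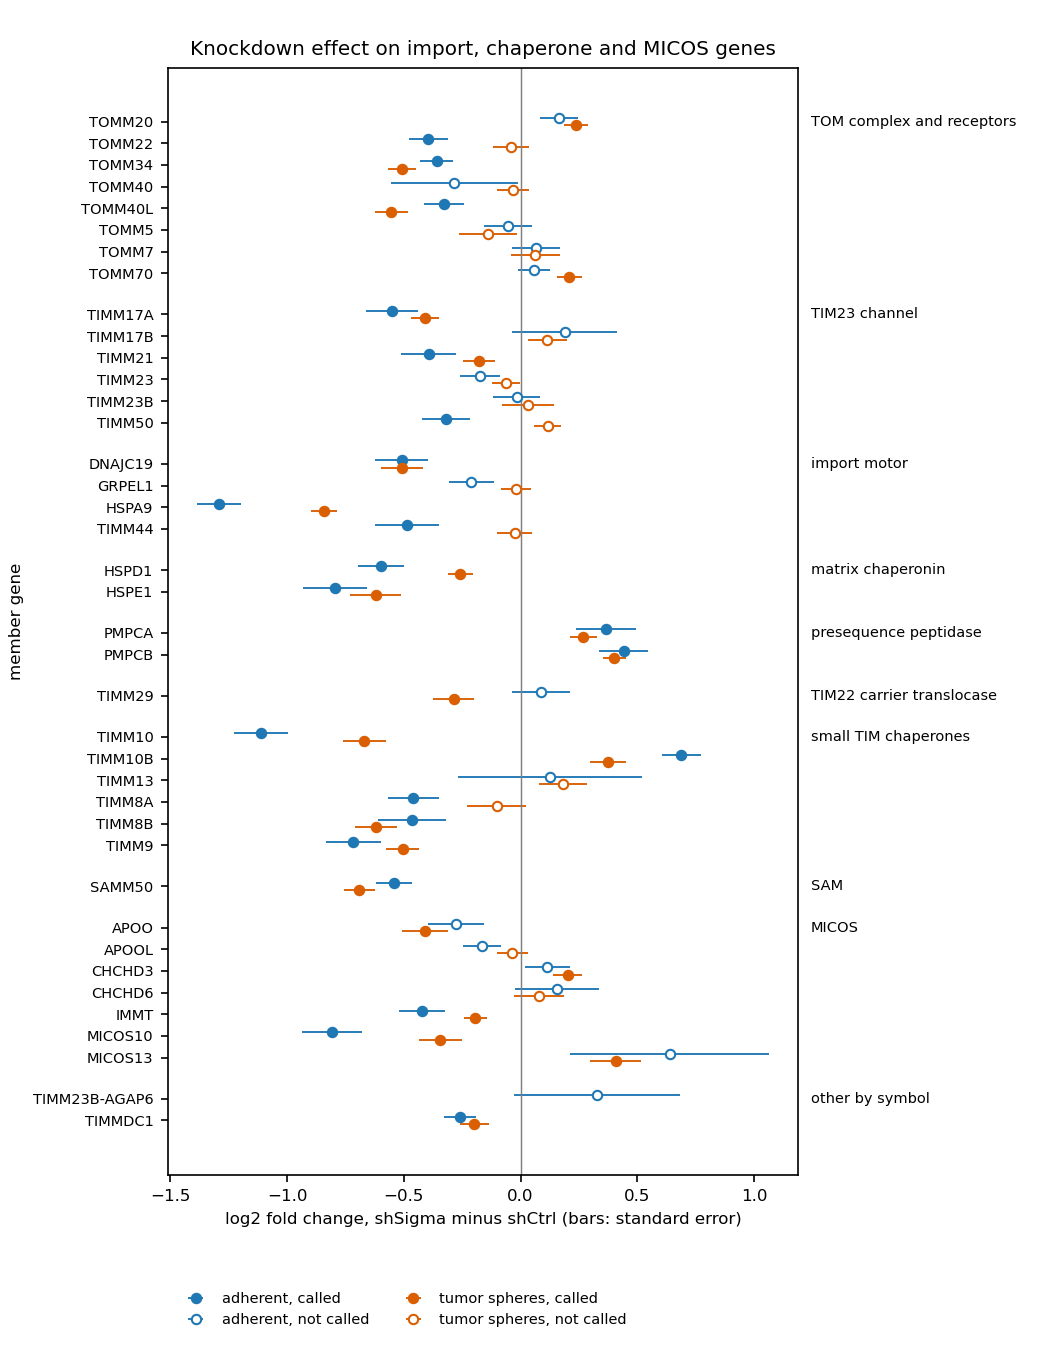
Log2 fold change of each tested member after knockdown (shSigma minus shCtrl, x axis) in adherent cells (blue) and tumor spheres (orange), grouped by role, with bars for the standard error, filled points for adjusted p under 0.05 and n = 3 libraries in each group. HSPA9 lies farthest left at -1.29 and -0.84, the 2 peptidase genes lie right of 0 in both cultures, and DNAJC15 is left out because its control libraries were at or near 0.

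Among the TOM genes, the receptors and the channel did not move together. TOMM20, a receptor for presequences, was at 333, 300 and 298 CPM in adherent shCtrl and at 358, 335 and 399 CPM in adherent shSigma libraries, so that all shSigma libraries were the higher ones by a narrow margin and the change of 0.16 was not called. In spheres TOMM20 was at 250, 271 and 263 CPM with shCtrl and 314, 302 and 311 CPM with shSigma. All shSigma spheres were above all shCtrl spheres, and TOMM20 was higher by 0.24 ± 0.05 on the log2 scale (adjusted p = 0.00142). TOMM70, the receptor for carriers, was likewise higher in spheres by 0.21 ± 0.05 and stood at 0.06 ± 0.07 in adherent cells.

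The central receptor TOMM22 was at 101, 89.8 and 86.3 CPM in adherent shCtrl and at 72.6, 71.8 and 75.7 CPM in adherent shSigma libraries, with no overlap. It was lower, at -0.39 ± 0.08 (adjusted p = 0.00566), a call kept in every alternative fit, stricter thresholds aside. In spheres its change was -0.04 ± 0.08. The difference between the cultures, 0.29 ± 0.12 on the log2 scale, did not pass the interaction test (adjusted p = 0.0855). TOMM40, which forms the pore itself, was at 38.1, 53.6 and 70.5 CPM in adherent shCtrl and 51.0, 52.9 and 34.1 CPM in adherent shSigma libraries. These overlapped widely, and its change of -0.28 had a standard error of 0.27. In spheres the pore gene stood at -0.03 ± 0.07.

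TOMM40L, a close relative of TOMM40, was lower in both cultures, at -0.33 ± 0.09 in adherent cells and at -0.55 ± 0.07 in spheres. Its sphere levels were 31.2, 31.3 and 30.7 CPM with shCtrl and 21.5, 20.6 and 21.6 CPM with shSigma. TOMM34, a cytosolic co-chaperone that hands precursors to the mitochondrion, was lower, at -0.36 ± 0.07 and -0.51 ± 0.06. The adherent call of TOMM40L was lost on leaving out any of adherent shCtrl replicates 1 and 2 and shSigma replicates 1 and 2 (-0.24 to -0.30), and that of TOMM34 on leaving out shCtrl replicate 2 (-0.31), shSigma replicate 1 (-0.28) or shSigma replicate 2 (-0.25). The small subunits TOMM5 and TOMM7 were called in neither culture (-0.05 and 0.06 in adherent cells, -0.14 and 0.06 in spheres). Per kilobase of transcript TOMM7 had the highest level of all members, a mean of 378 CPM per kb over the 12 libraries, ahead of HSPD1 (230), HSPA9 (135) and TOMM20 (94.8).

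In the TIM23 channel the paralogs of the second subunit differed. TIMM17A was at 186, 150 and 147 CPM in adherent shCtrl and 110, 108 and 127 CPM in adherent shSigma libraries, and in spheres at 152, 174 and 156 against 126, 115 and 123 CPM. Groups were separate in both cultures, and the log2 fold changes were -0.55 ± 0.11 (adjusted p = 0.0051) and -0.41 ± 0.06 (adjusted p = 0.00011). TIMM17B stood at 0.19 ± 0.23 and 0.11 ± 0.08. Its adherent shSigma libraries read 26.0, 31.4 and 19.2 CPM and overlapped the shCtrl libraries at 18.2, 20.05 and 26.5 CPM. Per kilobase TIMM17A had 84.5 CPM per kb on average, the fifth highest level of the members.

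The channel protein TIMM23 (-0.17 ± 0.09 and -0.06 ± 0.06) and its near-identical copy TIMM23B (-0.02 ± 0.10 and 0.03 ± 0.11) were called in neither culture, and reads shared by the copies may have been split between them. TIMM21, which links the channel to the respiratory chain, was lower, at -0.39 ± 0.12 in adherent cells and -0.18 ± 0.07 in spheres. The sphere call lay close to the threshold (adjusted p = 0.039) and was lost without any single sphere library (-0.16 to -0.19). In adherent cells TIMM21 lost its call without shCtrl replicate 1 (-0.22) or 2 (-0.37) and without shSigma replicate 1 (-0.27) or 2 (-0.30). TIMM50, the receptor of the channel, was at 83.0, 99.1 and 109 CPM in adherent shCtrl and 81.4, 84.8 and 76.8 CPM in adherent shSigma libraries. These overlapped by a narrow margin, its change of -0.32 ± 0.10 (adjusted p = 0.0348) was lost on leaving out any adherent library other than shCtrl replicate 1 (-0.25 to -0.29), and in spheres its change was 0.12 ± 0.06.

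The import motor held the largest falls and the largest rise. HSPA9 encodes mortalin, the matrix Hsp70 that pulls precursors through the channel, on the minus strand of chromosome 5. Its libraries read 1006, 894 and 846 CPM in adherent shCtrl, 374, 367 and 433 CPM in adherent shSigma, 668, 737 and 674 CPM in shCtrl spheres and 398, 375 and 390 CPM in shSigma spheres. No shSigma library reached the lowest shCtrl library of either culture. The level was 2.45-fold lower in adherent cells (log2 fold change -1.29 ± 0.10, adjusted p = 4.79e-05) and 1.79-fold lower in spheres (-0.84 ± 0.06, adjusted p = 1.54e-07). In adherent cells the value moved between -1.15 and -1.37 over single left-out libraries.

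The promoter of HSPA9 is shown because no member fell further in either culture. Promoter windows of 300 bases, 250 before and 50 after the transcript start, were taken from RefSeq on GRCh38.p14 for 41 of the 44 members, and TOMM5, TIMM8B and GRPEL1 had none in that table. The HSPA9 window lies at chr5:138575352-138575651 on the minus strand, is written 5′ to 3′ and has an E-box, CACGTG, in capitals.
HSPA9: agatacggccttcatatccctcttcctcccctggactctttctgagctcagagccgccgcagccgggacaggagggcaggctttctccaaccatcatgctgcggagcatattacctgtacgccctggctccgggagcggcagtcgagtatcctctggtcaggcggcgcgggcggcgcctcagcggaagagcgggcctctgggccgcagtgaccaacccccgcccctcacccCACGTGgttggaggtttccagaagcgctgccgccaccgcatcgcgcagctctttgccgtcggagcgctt
The E-box is the textbook binding sequence of MYC and related factors. It was found in the windows of 6 members, TOMM20, TIMM8A, TIMM10, HSPA9, HSPD1 and HSPE1, which is 6 of 41, beside 8.77% of 27305 genes with a window. The windows of HSPD1 and HSPE1 overlap and share an E-box, which was counted for both. Of the 6 members, HSPA9, HSPD1, HSPE1 and TIMM10 were called lower in both cultures. The same call was made for 15 of the 39 members tested in both, beside 17.7% of 13391 genes. Whether members with an E-box differ from the others was not tested. TIMM8A was called lower in adherent cells alone and TOMM20 higher in spheres alone. MYC was lower in adherent cells, at -0.54 ± 0.09 and higher in spheres by 0.41 ± 0.07. The part of MYC in the member changes was not tested.

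DNAJC19, TIMM44 and GRPEL1 changed less than HSPA9. DNAJC19, a co-chaperone of the motor family, was at 25.0, 22.9 and 24.6 CPM in adherent shCtrl and 18.2, 19.0 and 15.9 CPM in adherent shSigma libraries, and was lower, at -0.51 ± 0.11 in adherent cells and at -0.51 ± 0.09 in spheres. Its groups were separate in both cultures, and with the GC-content offset the adherent value was -0.35 and no longer called. TIMM44, which anchors the motor to the channel, was lower in adherent cells, at -0.49 ± 0.14 and stood at -0.03 ± 0.07 in spheres. The adherent call was lost without shCtrl replicate 2 (-0.48), shCtrl replicate 3 (-0.36) or shSigma replicate 1 (-0.45), and the TIMM44 difference between cultures, 0.41 ± 0.16, did not pass (adjusted p = 0.073). GRPEL1, the nucleotide exchange factor of mortalin, was called in neither culture (-0.21 ± 0.10 and -0.02 ± 0.06).

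DNAJC15, a J-domain relative of DNAJC19 at the import motor, was measured in every shSigma library and at or near 0 in every shCtrl library. The shSigma libraries held 5.999, 5.94 and 6.61 CPM in adherent cells and 4.59, 4.40 and 4.503 CPM in spheres, which is 83 to 137 counts each. The shCtrl libraries held 1 count in adherent replicate 1 and none in the other 5. Against a floor of 3 counts in each library the rise was at least 51.5-fold in adherent cells and at least 27.4-fold in spheres. No p is given for it, since a gene at 0 in one group could enter the test only by being high in the other. Even so its level was low, at 0.358 CPM per kb over all libraries.

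The start of DNAJC15 is shown because it is the member that went from near 0 to a measured level in both cultures. Its window lies at chr13:43023336-43023635 on the plus strand and has an ETS motif, CCGGAAG or its reverse complement, in capitals.
DNAJC15: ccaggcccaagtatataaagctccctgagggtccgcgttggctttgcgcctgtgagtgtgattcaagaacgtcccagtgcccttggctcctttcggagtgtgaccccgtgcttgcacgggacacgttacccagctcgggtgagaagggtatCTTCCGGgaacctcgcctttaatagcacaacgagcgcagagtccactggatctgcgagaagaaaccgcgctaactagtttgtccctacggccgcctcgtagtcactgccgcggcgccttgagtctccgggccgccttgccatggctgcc
The window held 24 CpG dinucleotides and 60.0% GC. The ETS motif was found for 18 of the 41 members with a window, beside 12.2% of all genes with a window. The 18 include TIMM23B and its readthrough TIMM23B-AGAP6, which overlap on the same strand, so the same motif may have been counted for both. The 40 nearest tested genes on chromosome 13 had a median log2 fold change of -0.02 in adherent cells and 0.10 in spheres.

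**Figure D2:**
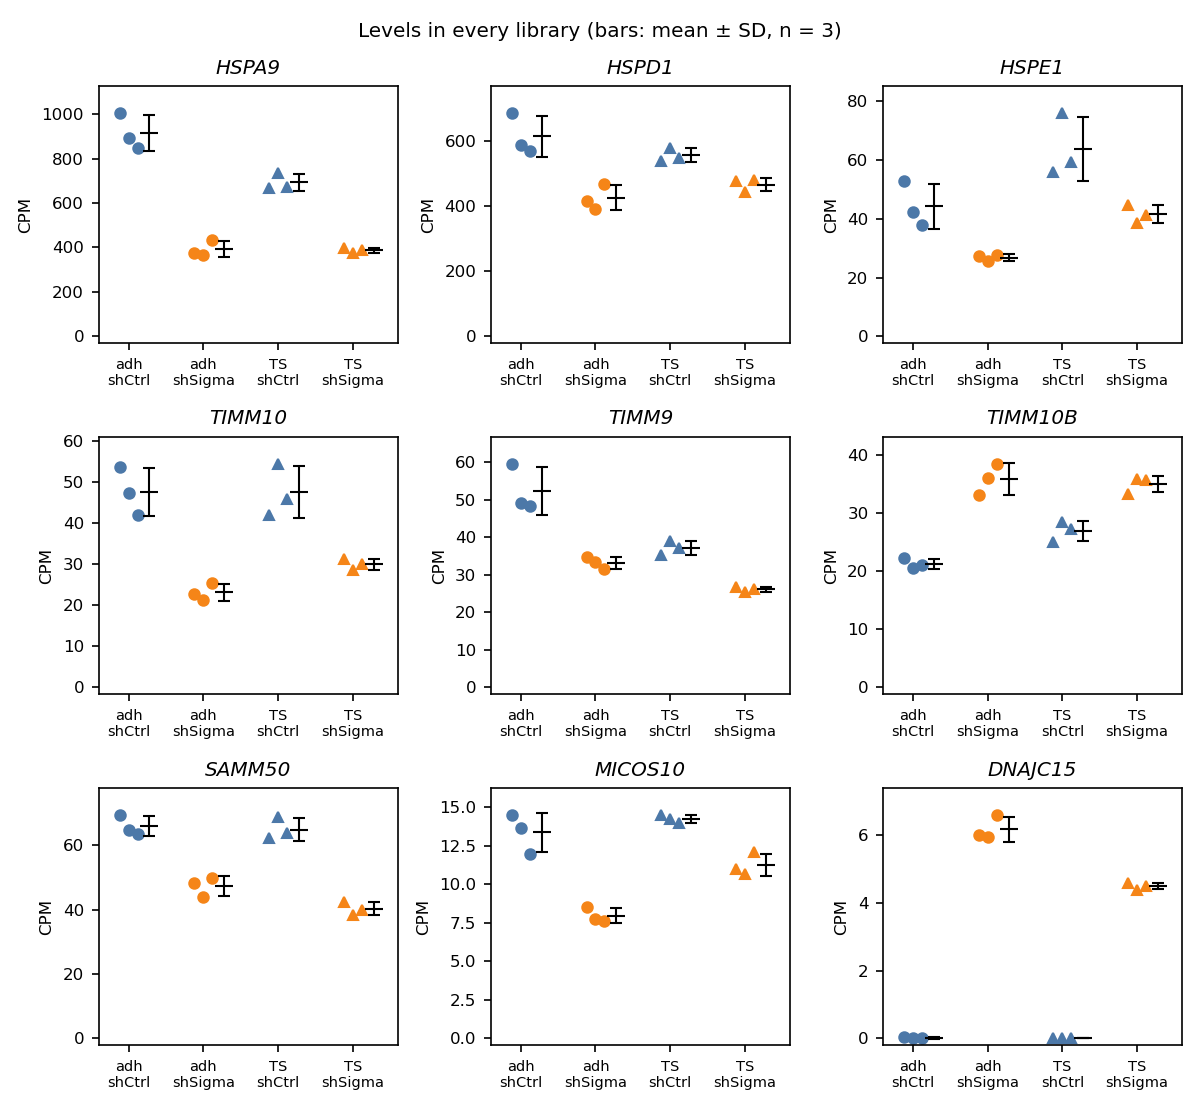
CPM (y axis, from 0) in every library of 9 members, with circles for adherent cells, triangles for tumor spheres, blue for shCtrl, orange for shSigma and black bars for mean ± SD (n = 3). HSPA9 reads 846 to 1006 CPM in adherent shCtrl and 367 to 433 CPM in adherent shSigma libraries, and DNAJC15 is visible in the 6 shSigma libraries alone.

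The chaperonin subunits fell together. HSPD1 (Hsp60) forms the folding barrel and HSPE1 (Hsp10) its lid. HSPD1 was at 687, 588 and 570 CPM in adherent shCtrl and 415, 393 and 467 CPM in adherent shSigma libraries, and at 539, 580 and 549 against 477, 442 and 479 CPM in spheres. The groups were separate in both cultures, with log2 fold changes of -0.60 ± 0.10 (adjusted p = 0.0018) and -0.26 ± 0.05 (adjusted p = 0.00141). HSPE1 was at 52.8, 42.2 and 37.9 CPM in adherent shCtrl and 27.3, 25.5 and 27.5 CPM in adherent shSigma libraries, and at 56.0, 76.0 and 59.2 against 44.8, 38.5 and 41.3 CPM in spheres. These were separate too, with changes of -0.79 ± 0.14 and -0.62 ± 0.11. Per kilobase HSPE1 lay below HSPD1, with 79.1 against 230 CPM per kb.

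The chaperonin genes lie head to head on chromosome 2, and their shared promoter is shown for that reason. The RefSeq start of HSPE1 lies 105 bases from the nearer start of HSPD1, and the windows share 204 bases. A further HSPD1 start lies 539 bases away. The HSPE1 window is chr2:197500129-197500428 on the plus strand, with an NRF1 motif (GCGCA, any base, GCGC) and an E-box in capitals, in that order.
HSPE1: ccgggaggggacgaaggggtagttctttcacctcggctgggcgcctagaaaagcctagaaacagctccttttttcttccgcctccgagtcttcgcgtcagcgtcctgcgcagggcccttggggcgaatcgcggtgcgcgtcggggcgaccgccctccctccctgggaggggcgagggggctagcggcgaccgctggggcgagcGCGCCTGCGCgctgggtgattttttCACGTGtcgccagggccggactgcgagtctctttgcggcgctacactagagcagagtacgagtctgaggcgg
The NRF1 motif was found for 9 of the 41 members with a window, beside 6.98% of all genes with a window. A heat shock motif, GAANNTTC, was found for 1 member, HSPD1, beside 8.21% of those genes. The NRF1 motif shown lies in the bases shared with HSPD1 and was counted for both genes. An ATF4 motif, TGATGNAA, was found in the windows of TIMM22 and PMPCB, beside 4.46%. All motifs were searched on both strands. A gene with several windows was counted as matching if any of them matched. In GENCODE the whole of HSPE1 (chromosome 2, 197500140 to 197503449) lies within the span of HSPD1 (197486584 to 197516737) on the opposite strand, and the use of strand in counting is not given in the sources used here. HSPD1 also has processed pseudogenes, and how reads with several alignments were treated is not given either.

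The peptidase subunits went the other way. PMPCB, the catalytic subunit, was at 179, 152 and 143 CPM in adherent shCtrl and 216, 213 and 245 CPM in adherent shSigma libraries, and at 126, 134 and 129 against 174, 166 and 174 CPM in spheres. PMPCA, its partner, was at 79.0, 91.1 and 104 CPM against 131, 130 and 106 CPM in adherent cells. Both genes were higher in every shSigma library, PMPCB by 0.44 ± 0.10 and 0.40 ± 0.05 and PMPCA by 0.37 ± 0.13 and 0.27 ± 0.06. PMPCA lost its adherent call without shCtrl replicate 2 (0.42), shCtrl replicate 3 (0.45), shSigma replicate 1 (0.38) or shSigma replicate 2 (0.38).

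The neighbourhood of both peptidase genes was higher as well. The 40 tested genes nearest to PMPCB on chromosome 7 had a median log2 fold change of 0.63 in adherent cells and 0.69 in spheres, and those nearest to PMPCA on chromosome 9 of 0.44 and 0.37. With the neighbours' median subtracted PMPCA stood at -0.07 and -0.10 and was not called, and PMPCB stood at -0.19 (not called) and -0.29 (called lower). The neighbours of CHCHD3, a MICOS gene that is also on chromosome 7, had medians of 0.55 and 0.57. For HSPA9, TIMM10 and HSPE1 the neighbours stood at -0.01, 0.00 and 0.08 in adherent cells and at -0.19, 0.03 and 0.19 in spheres. Those genes kept their calls after subtraction in both cultures, with HSPA9 at -0.65 in spheres. The neighbours of SAMM50 stood at -0.25 in spheres and those of MICOS10 at -0.27 in adherent cells. After subtraction SAMM50 was at -0.45 and MICOS10 at -0.53 there, both still called.

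**Figure D3:**
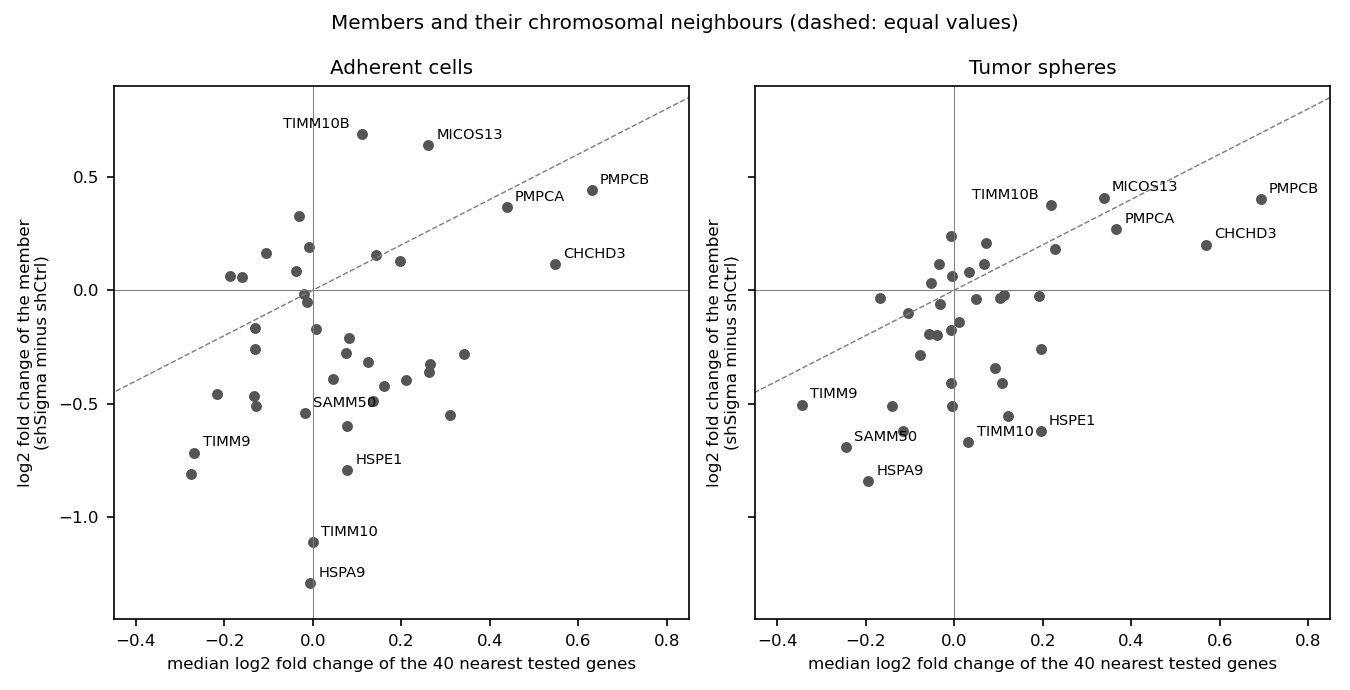
Log2 fold change of each member (y axis, shSigma minus shCtrl) against the median log2 fold change of its 40 nearest tested genes (x axis) in adherent cells and tumor spheres; the dashed line marks equal values. PMPCA, PMPCB and CHCHD3 lie at neighbour medians of 0.37 to 0.69, whereas HSPA9 and TIMM10 in adherent cells lie at -0.01 and 0.00 with changes of -1.29 and -1.11.

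Among the small TIM chaperones, the pair that forms the main carrier chaperone of the intermembrane space fell. TIMM10 was at 53.8, 47.4 and 42.1 CPM in adherent shCtrl and 22.8, 21.3 and 25.4 CPM in adherent shSigma libraries, and at 42.2, 54.5 and 46.0 against 31.3, 28.6 and 30.1 CPM in spheres. It was 2.16-fold lower in adherent cells (-1.11 ± 0.12, adjusted p = 0.000225) and 1.59-fold lower in spheres (-0.67 ± 0.09, adjusted p = 5.94e-05). Its partner TIMM9 was at 59.6, 49.03 and 48.2 against 34.8, 33.4 and 31.6 CPM in adherent cells and at 35.2, 38.9 and 37.0 against 26.8, 25.5 and 26.3 CPM in spheres. The groups of both genes were separate in both cultures, and TIMM9 was lower, at -0.72 ± 0.12 and -0.51 ± 0.07. The TIMM9 neighbours stood at -0.27 and -0.34, and after their subtraction the sphere value of -0.16 was no longer called.

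The TIMM10 window is shown for its 2 ETS motifs and its E-box, in capitals in that order, since TIMM10 fell the most after HSPA9 in adherent cells. It lies at chr11:57530705-57531004 on the minus strand.
TIMM10: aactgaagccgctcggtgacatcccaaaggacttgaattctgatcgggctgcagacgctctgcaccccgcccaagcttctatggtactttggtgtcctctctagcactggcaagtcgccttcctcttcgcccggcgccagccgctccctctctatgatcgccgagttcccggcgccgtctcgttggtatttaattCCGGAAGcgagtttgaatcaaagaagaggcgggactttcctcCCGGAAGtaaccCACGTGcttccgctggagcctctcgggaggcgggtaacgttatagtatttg
TIMM10B, the subunit that joins this chaperone to the TIM22 translocase, moved the opposite way. It was at 22.3, 20.6 and 21.1 CPM in adherent shCtrl and 33.1, 36.2 and 38.5 CPM in adherent shSigma libraries, and at 25.0, 28.5 and 27.3 against 33.4, 35.9 and 35.7 CPM in spheres. The groups were separate, with changes of 0.69 ± 0.08 (adjusted p = 0.000426) and 0.37 ± 0.08 (adjusted p = 0.00113), and after subtraction of the neighbours the sphere value was 0.16 and not called. TIMM10 and TIMM10B both held ETS motifs.

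Of the second small TIM chaperone, TIMM8A was lower in adherent cells, at -0.46 ± 0.11 and TIMM13 was called in neither culture (0.13 ± 0.39 and 0.18 ± 0.10). TIMM8B, a relative of TIMM8A, was lower, at -0.47 ± 0.15 in adherent cells and -0.62 ± 0.09 in spheres, where its libraries read 38.1, 44.8 and 42.5 CPM with shCtrl and 30.4, 25.3 and 26.1 CPM with shSigma. The sphere groups were separate. In adherent cells TIMM8B lost its call without any adherent library except shSigma replicate 2 (-0.33 to -0.50), and TIMM8A lost its call without shCtrl replicate 1 (-0.35) or 2 (-0.44) and without shSigma replicate 1 (-0.37) or 2 (-0.33).

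TIMM29, a subunit of the TIM22 translocase, was lower in spheres, at -0.29 ± 0.09 and stood at 0.09 ± 0.12 in adherent cells. Its sphere libraries read 14.8, 16.5 and 16.1 CPM with shCtrl and 13.1, 13.0 and 12.8 CPM with shSigma, without overlap, but the call was lost without shCtrl replicate 3 or shSigma replicate 3 (-0.27 in each case). The channel gene TIMM22 was listed at 0 in every library, as were TOMM6 and the motor gene PAM16. Genes that most cells use, such as MTCH2 and HSF1, were also at 0 or 1 count, so a 0 says here only that the gene is listed at 0. All 3 members overlap other annotated genes, as do well-measured members such as HSPD1 and PMPCB, and the part of overlap was not tested. TOMM20L, a relative of TOMM20, had at most 0.358 CPM and was not tested.

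SAMM50, the barrel that inserts other barrel proteins into the outer membrane, was lower in both cultures. Its libraries read 69.5, 64.6 and 63.6 CPM in adherent shCtrl, 48.3, 43.8 and 49.9 CPM in adherent shSigma, 62.1, 68.8 and 63.8 CPM in shCtrl spheres and 42.4, 38.5 and 39.9 CPM in shSigma spheres. All shSigma libraries were below all shCtrl libraries. The log2 fold changes were -0.54 ± 0.08 (adjusted p = 0.000985) and -0.69 ± 0.07 (adjusted p = 3.41e-06). Both calls were kept in every alternative fit, stricter thresholds aside.

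The MICOS subunits split. MICOS10 and IMMT, the core proteins of its subcomplexes, were lower in both cultures. MICOS10 was at 14.5, 13.7 and 11.99 CPM in adherent shCtrl and 8.52, 7.78 and 7.62 CPM in adherent shSigma libraries, and at 14.5, 14.2 and 14.01 against 10.99, 10.7 and 12.1 CPM in spheres. The groups were separate, with changes of -0.81 ± 0.13 (adjusted p = 0.00158) and -0.34 ± 0.09 (adjusted p = 0.00675). MICOS10 overlaps NBL1, CAPZB and a readthrough gene, so part of its counts is uncertain. IMMT (mitofilin) was at 202, 180 and 175 against 133, 135 and 169 CPM in adherent cells and at 141, 150 and 148 against 128, 126 and 130 CPM in spheres, and it was lower, at -0.42 ± 0.10 and -0.19 ± 0.05. Its groups were separate in both cultures, but the adherent call was lost without shCtrl replicate 1 (-0.29) or 2 (-0.38) and without shSigma replicate 1 (-0.29) or 2 (-0.30).

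Of the lipid-binding subunits, APOO was lower in spheres (-0.41 ± 0.10, adjusted p = 0.00334) and stood at -0.28 ± 0.12 in adherent cells (adjusted p = 0.0911), while APOOL stood at -0.17 ± 0.08 and -0.04 ± 0.07. CHCHD3, which ties MICOS to SAMM50, was higher in spheres by 0.20 ± 0.06, where its neighbours stood at 0.57. After their subtraction CHCHD3 was called lower, at -0.43 in adherent cells and -0.37 in spheres. Without shSigma sphere replicate 1 the unsubtracted CHCHD3 value was 0.16 and not called. CHCHD6 was called in neither culture (0.16 ± 0.18 and 0.08 ± 0.11).

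MICOS13, the bridge between the subcomplexes, was the subunit with the widest spread between adherent replicates. It read 9.49, 12.7 and 20.04 CPM in adherent shCtrl and 25.6, 30.3 and 11.9 CPM in adherent shSigma libraries, and the change of 0.64 ± 0.43 was not called. In spheres it read 30.7, 25.8 and 33.9 CPM with shCtrl and 44.5, 36.1 and 39.7 CPM with shSigma. The sphere groups were separate and MICOS13 was higher by 0.41 ± 0.11 (adjusted p = 0.00708). With the GC-content offset the sphere change was 0.14 and not called, and with the neighbours subtracted it was 0.07.

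The other GC-rich members spread between adherent libraries in the same order as MICOS13. MICOS13 (64.0% GC), TOMM40 (63.3%), TIMM13 (62.1%) and TIMM17B (61.9%) have the highest GC content of the members tested. TIMM13 read 16.1, 21.7 and 34.4 CPM in adherent shCtrl and 28.8, 36.7 and 15.97 CPM in adherent shSigma libraries. All 4 were lowest in replicate 1 of shCtrl and in replicate 3 of shSigma and highest in replicate 3 of shCtrl and in replicate 2 of shSigma. Over all 14060 genes compared, the Spearman rho between GC content and a library's deviation from its group mean was -0.67, -0.01 and 0.73 in adherent shCtrl replicates 1, 2 and 3 and 0.46, 0.64 and -0.68 in adherent shSigma replicates 1, 2 and 3, across genes that are not independent replicates. In spheres it lay between -0.43 and 0.32. HSPA9, HSPD1, HSPE1 and TIMM9 have 42.1%, 41.7%, 39.3% and 41.3% GC, and their adherent values with the GC-content offset stayed called. The biological coefficient of variation was 14.4% in the adherent fit and 6.89% in the sphere fit.

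**Figure D4:**
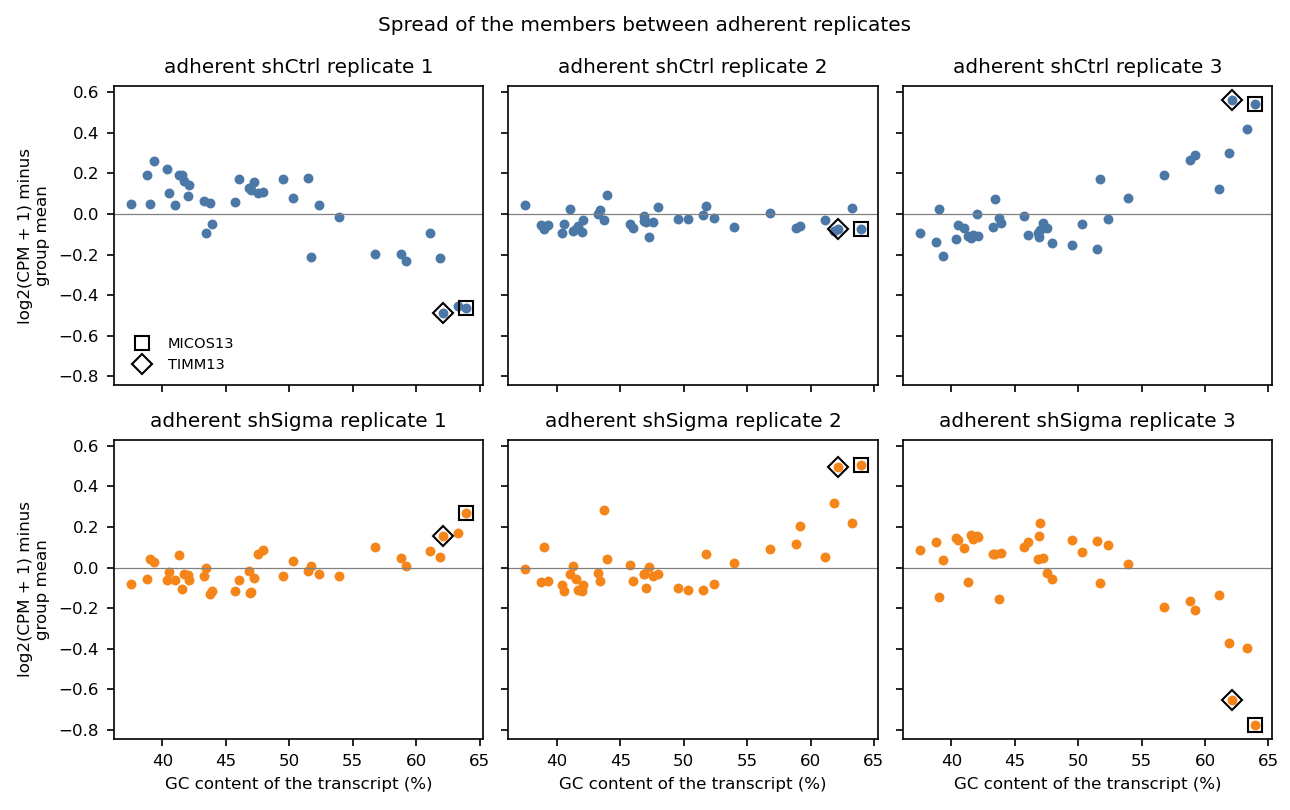
Deviation of each member with at least 5 CPM from its group mean (y axis, log2(CPM + 1)) against the GC content of its transcript (x axis, %) in the 6 adherent libraries; blue is shCtrl, orange shSigma, the square MICOS13 and the diamond TIMM13. GC-rich members lie lowest in shCtrl replicate 1 and shSigma replicate 3, where MICOS13 deviates by -0.46 and -0.78, and highest in shCtrl replicate 3 (0.54) and shSigma replicate 2 (0.51).

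The members included by symbol and placed in none of the roles above were TIMMDC1, an assembly factor of respiratory complex I, and TIMM23B-AGAP6, a readthrough transcript. TIMMDC1 was lower, at -0.26 ± 0.07 in adherent cells and at -0.20 ± 0.06 in spheres. It lost the adherent call without shCtrl replicate 1 (-0.17) or 2 (-0.20) or shSigma replicate 1 (-0.17) or 2 (-0.18), and the sphere call without shCtrl replicate 3 (-0.19) or shSigma replicate 2 (-0.15). TIMM23B-AGAP6 stayed under 1 CPM. With the GC-content offset TIMMDC1 was called in neither culture (-0.13 in each), and TIMM8B was not called in adherent cells (-0.33). With the neighbours subtracted the adherent calls of TIMM8A (-0.24), TIMM8B (-0.33) and TIMMDC1 (-0.13) and the sphere call of TIMM29 (-0.21) were lost. With upper-quartile normalization the adherent call of TIMM50 was lost (-0.26), and in DESeq2 those of TOMM40L (-0.30) and TIMMDC1 (-0.23). In the joint fit of the 12 libraries the sphere calls of IMMT (-0.19), TIMM21 (-0.17), CHCHD3 (0.20) and MICOS13 (0.41) were lost.

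Whether knockdown acted differently in the cultures was tested as an interaction term, fitted on the 12 libraries together, whose values differ somewhat from a subtraction of the separately fitted changes given above. Of 40 members, 5 were called, 2 with a more negative value in spheres and 3 with a less negative one, against 28.4% of 14175 genes tested (15.6% lower and 12.7% higher). HSPA9 fell less in spheres (difference 0.39 ± 0.12, adjusted p = 0.023), as did MICOS10 (0.40 ± 0.14, adjusted p = 0.0476), and TIMM50 moved from -0.32 in adherent cells to 0.12 in spheres (0.38 ± 0.12, adjusted p = 0.0346). TIMM10B rose less in spheres (-0.37 ± 0.12, adjusted p = 0.0255), and TIMM29 differed by -0.43 ± 0.14 (adjusted p = 0.0359). None of the 5 member calls was kept in every alternative, and with the GC-content offset 9 were called, 1 lower and 8 higher. The share of all genes called with the offset is not given here. The median over all genes with that offset was -0.04, beside -0.003 over the members. For TIMM10 the difference of 0.38 ± 0.16 did not pass (adjusted p = 0.0897), nor did that of HSPD1 (0.28 ± 0.12, adjusted p = 0.0972).

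The move from adherent growth to spheres was compared within each hairpin, and these comparisons use the libraries of the knockdown comparisons again. In shCtrl cells 10 of 38 members were lower and 8 higher in spheres (26.3% and 27.4% of 13800 genes, 53.7% in all), with a median of 0.08 beside 0.04 over all genes. In shSigma cells 9 of 40 were lower and 9 higher (25.2% and 21.9% of 13622 genes, 47.1% in all), with a median of 0.09 beside 0.0025. With the GC-content offset the split was 4 lower and 14 higher in shCtrl and 2 lower and 16 higher in shSigma cells, so the balance of directions depended on that offset. The median over all genes moved as well, to 0.09 in shCtrl and 0.06 in shSigma cells, beside 0.11 and 0.20 over the members. The shares of all genes called with the offset are not given here. With upper-quartile normalization 8 were lower and 10 higher in shCtrl cells. The groups did not overlap for 21 of 38 members in shCtrl (62.7% of all genes) and 22 of 40 in shSigma cells (60.8%).

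TOMM40L had the same direction in both lines. In shCtrl cells it was at 17.97, 17.3 and 19.2 CPM adherent and 31.2, 31.3 and 30.7 CPM in spheres, and in shSigma cells at 14.7, 15.4 and 15.3 against 21.5, 20.6 and 21.6 CPM. All spheres were above all adherent libraries, and the changes were 0.77 ± 0.08 and 0.51 ± 0.08. HSPE1 was higher by 0.52 ± 0.16 in shCtrl and 0.66 ± 0.07 in shSigma cells, while its partner HSPD1 stood at -0.15 ± 0.08 and 0.16 ± 0.06 and was not called. The shCtrl call of HSPE1 was lost without sphere replicate 2 (0.38) or 3 (0.54) or adherent replicate 2 (0.49) or 3 (0.37). APOO and TOMM34 were also higher in both lines, but in shSigma cells neither was called without sphere replicate 1 or 3 or adherent replicate 1 or 2 (APOO at 0.25 to 0.34, TOMM34 at 0.16 to 0.18).

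Lower in spheres in both lines were 7 of the 38 members tested in both, TOMM7, TOMM20, TOMM70, GRPEL1, PMPCB, TIMM9 and APOOL, against 14.5% of 13275 genes. The 4 that were higher in both compare with 12.8%, the 14 called in neither with 30.5% and the 0 in opposite directions with 3.64%. TIMM9 was lower, at -0.50 ± 0.10 in shCtrl and at -0.32 ± 0.08 in shSigma cells, and TOMM7 at -0.39 ± 0.14 and -0.43 ± 0.06. TOMM70 was lower, at -0.32 ± 0.06 and -0.20 ± 0.05. With the GC-content offset TOMM20, TOMM70, GRPEL1 and APOOL were called in neither line, with no value below -0.16. PMPCB was not called in shCtrl cells with that offset (-0.03) or with upper-quartile normalization (-0.25), and TIMM9 was not called in shSigma cells with the offset (-0.16). TOMM7 was not called in shCtrl cells with upper-quartile normalization (-0.35). TOMM20 also lost its call without shCtrl sphere replicate 1 (-0.25) and, in shSigma cells, without sphere replicate 2 (-0.19) or 3 (-0.22) or adherent replicate 1 (-0.21). GRPEL1 lost it in shSigma cells without sphere replicate 2 (-0.21) or 3 (-0.19), as did TIMM9 without sphere replicate 2 (-0.30). In shCtrl cells PMPCB (-0.30 to -0.32) and TOMM7 (-0.32 to -0.41) were not called without sphere replicate 1, sphere replicate 3 or adherent replicate 2.

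Further members were called in one line. In shCtrl cells HSPA9 was lower in spheres, at -0.40 ± 0.08 and IMMT at -0.35 ± 0.07, and MICOS13 (1.10 ± 0.27), TIMM29 (0.56 ± 0.11), TIMM8B (0.54 ± 0.09) and TIMM10B (0.34 ± 0.09) were higher. MICOS13 lost its call without adherent shCtrl replicate 2 (1.03), and TIMM10B without adherent replicate 2 (0.31) or sphere replicate 3 (0.29). With the GC-content offset TIMM29 stood at 0.11, IMMT at -0.14 and TOMM22 at -0.10, none of them called, and HSPA9 at -0.16 and called. TOMM22 was lower, at -0.31 ± 0.09 in shCtrl cells, a call lost without sphere replicate 1 (-0.27) or 3 (-0.34) or adherent replicate 2 (-0.33). In shSigma cells HSPA9 stood at 0.01 ± 0.06, and TIMM10 (0.40 ± 0.08), TIMM44 (0.52 ± 0.10), TIMM50 (0.48 ± 0.07), MICOS10 (0.52 ± 0.11) and TOMM40 (0.66 ± 0.19) were higher. TOMM40 lost its call without any sphere library or adherent shSigma replicate 1 (0.61 to 0.75), and with the GC-content offset its value was 0.14. SAMM50 (-0.21 ± 0.07) and DNAJC15 (-0.44 ± 0.11) were lower, SAMM50 not without sphere replicate 2 (-0.17) or 3 (-0.20) or adherent replicate 1 (-0.19). With the GC-content offset SAMM50 (-0.09) and DNAJC15 (-0.24) were not called, nor were they in DESeq2. The difference between the lines was tested by the same interaction term, which passed for HSPA9, MICOS10, TIMM50, TIMM10B and TIMM29.

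**Figure D5:**
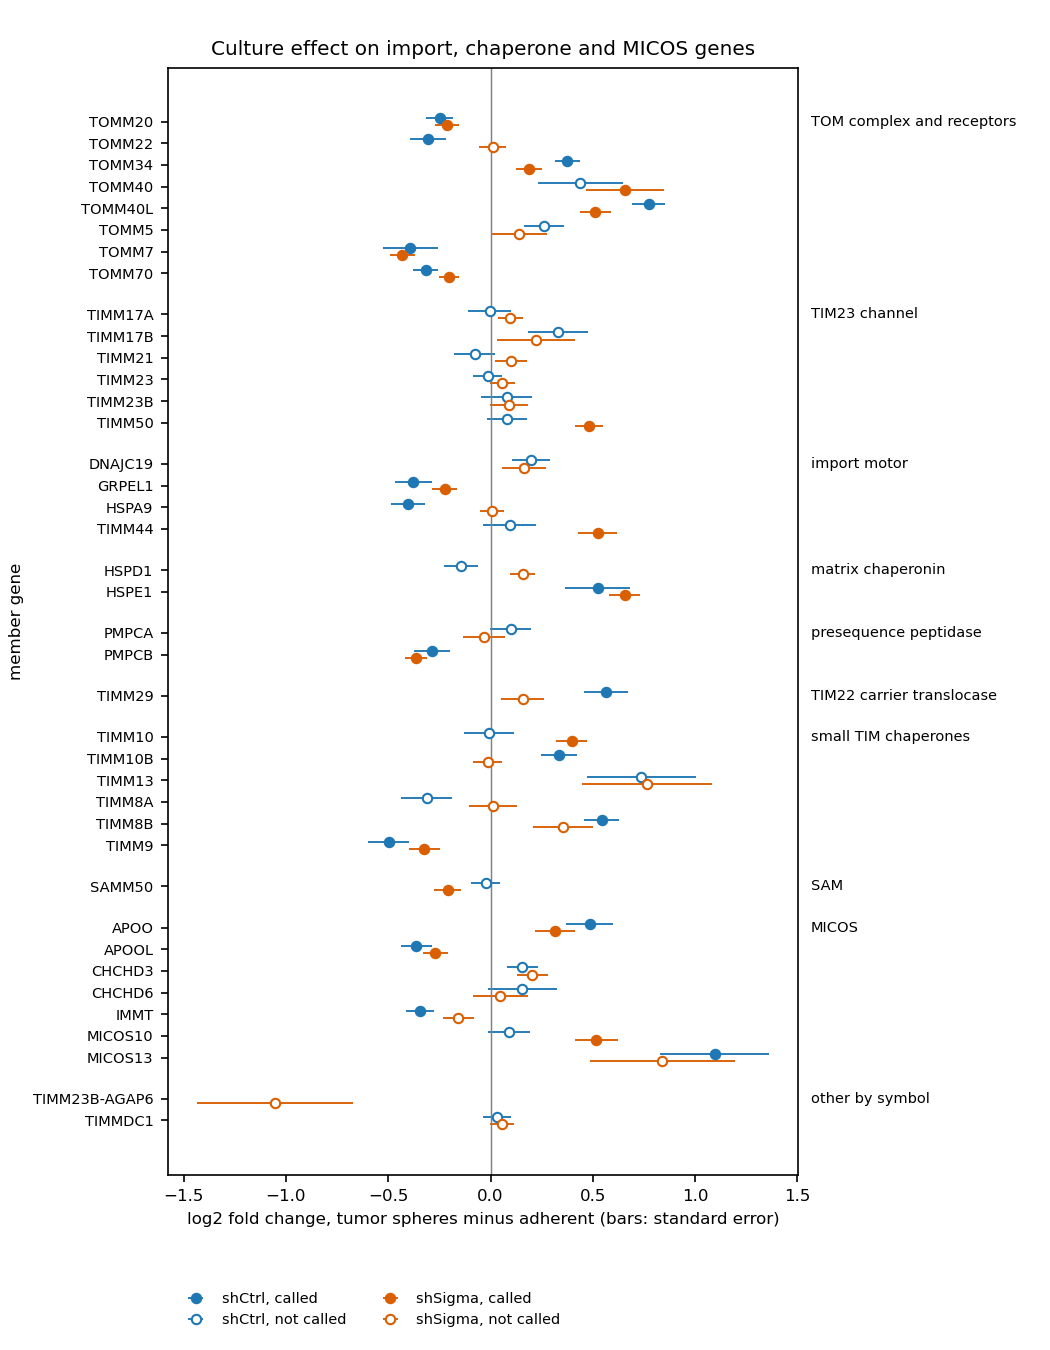
Log2 fold change of each tested member between cultures (tumor spheres minus adherent, x axis) in shCtrl cells (blue) and shSigma cells (orange), grouped by role, with bars for the standard error, filled points for adjusted p under 0.05 and n = 3 libraries in each group. TOMM40L lies at 0.77 and 0.51 and TIMM9 at -0.50 and -0.32, while MICOS13 and TIMM13 have wide bars.

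Other genes of the pathway were taken from lists written by hand. As a background for their counts, knockdown gave a call of lower for 27.7% of all genes tested in the adherent fit and 30.9% in the sphere fit. Calls of higher made up 22.3% and 30.2%. Whether any list departs from these shares was not tested. Of 20 tested genes in a list of further import and insertion genes, 8 were lower in adherent cells and 2 higher (median -0.13), and in spheres 8 were lower and 5 higher (median -0.11). CHCHD4, the oxidoreductase that traps the small TIM chaperones in the intermembrane space, was at 39.7, 34.3 and 35.0 CPM in adherent shCtrl and 18.1, 16.03 and 19.2 CPM in adherent shSigma libraries and was lower, at -1.10 ± 0.10, and in spheres at -0.60 ± 0.08. OXA1L, the insertase of the inner membrane, was lower, at -0.97 ± 0.08 and -0.76 ± 0.06, and GRPEL2, the paralog of GRPEL1, at -0.73 ± 0.08 and -0.41 ± 0.07. CHCHD4, OXA1L and GRPEL2 were picked from the genes of the list that were lower, and those called higher are not named here. Of 9 mitochondrial quality control proteases in adherent cells 2 were lower and none higher, and 3 were lower and 1, YME1L1 (0.42 ± 0.05), higher in spheres. Of 8 tested stress and biogenesis factors in adherent cells 3 were lower and none higher, and in spheres 2 were lower and 4 higher. ATF4, the main factor of the integrated stress response, was lower, at -0.37 ± 0.07 and -0.18 ± 0.07.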

How the data were processed

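Adherent DU145 cells and tumor spheres grown from them were the RNA source, in biological replicates, and directional libraries were sequenced from one end on an Illumina NextSeq500. What made the replicates independent is not described further, so p-values measure the spread between these samples. The authors aligned reads to GRCh38.p12 with STAR 2.6.1c (per the submitters' processing notes) and deposited raw counts per gene without normalization. Which annotation and strand setting were used, and how multiply aligned reads were counted, is not given in the sources used here. The members, gene lists, motifs and tests were chosen with earlier results of these data known.

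From the deposited counts, symbols were assigned through GENCODE release 44 for 26153 of 28747 identifiers, and every count column was used (0 left out). Log2 fold changes, standard errors and two-sided p-values came from the robust quasi-likelihood test of edgeR 4.0.16 (limma 3.58.1, R 4.3.3), with TMM scaling, filterByExpr at a minimum count of 10 and adjustment by Benjamini-Hochberg across the genes of each fit. Each comparison was fitted on its own 6 libraries, and the interaction on all 12. Calls were made where the adjusted p was under 0.05. Printed CPM were scaled over all 12 libraries. Fitted fold changes used a prior count of 0.125. The floor of 3 counts per library covers counting error only, since reads carry no molecular identifiers. Any member could be named, and values in every library were given at least for the 5 called members with the largest change in each knockdown comparison. An exact permutation test of 3 against 3 libraries cannot go below p = 0.1. The alternatives tried were limma-voom for the interaction, DESeq2 1.42.0, edgeR with size factors from DESeq2, upper-quartile normalization, no filter, a minimum of 10 counts in all libraries, a joint fit of the 12 libraries, stricter thresholds, subtraction of the median of the 40 nearest tested genes, leaving out single libraries and the replicate block. An offset for GC content was chosen after seeing the data. The procedure was tested on simulated counts. Promoter windows are those of RefSeq on GRCh38.p14, and figures were drawn with matplotlib 3.10.9. The level of the targeted gene is not reported here.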

Additional observations from a re-analysis of the deposited data

Results flagged for a closer look

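For 5 members the knockdown effect differed between tumor spheres and adherent cells by the interaction test, each value being the interaction term of 1 fit of all 12 libraries (spheres minus adherent cells), not a subtraction of the separately fitted changes. HSPA9 differed by 0.39. Its call was lost with the replicate block and without adherent shSigma replicate 1 or 2, shCtrl sphere replicate 1 or 3 or shSigma sphere replicate 1 or 3, with values of 0.37 to 0.41. TIMM50 differed by 0.38, a call lost with the replicate block and without adherent shCtrl replicate 2 (0.38), shCtrl sphere replicate 1 (0.37) or shSigma sphere replicate 1 (0.36). MICOS10 differed by 0.40, TIMM10B by -0.37 and TIMM29 by -0.43, and each of these lost its call in DESeq2 and on leaving out 9 or more of the 12 libraries in turn. The directions were the same in all of these fits.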

How the results depend on the processing

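Replicate numbers were shared between groups, and whether they pair the samples is not given in the sources used here. Deviations of same-numbered adherent libraries correlated at -0.62, -0.03 and -0.85 between the hairpins, and those of spheres at 0.06, -0.00 and -0.11. Between the cultures they correlated at -0.47, -0.07 and 0.26 in shCtrl and at 0.30, -0.04 and 0.43 in shSigma cells, so no comparison had all 3 over 0.1. Adherent libraries with different numbers correlated between the hairpins at -0.74 (shSigma replicate 2, shCtrl replicate 1) to 0.82 (shSigma replicate 3, shCtrl replicate 1). What lies behind these correlations was not tested. With the replicate block 15 members were called in adherent cells instead of 23, and 1 instead of 5 for the interaction. At an adjusted p under 0.01 the counts were 15 in adherent cells, 11 and 10 for culture in shCtrl and shSigma cells and 0 for the interaction. At an adjusted p under 0.05 and a log2 fold change beyond 1 in size they were 3 in adherent cells, 1 in spheres, 1 and 0 for culture in shCtrl and shSigma cells and 0 for the interaction. Of all genes tested, 2180 of 13800 and 1270 of 13622 passed that threshold for culture in shCtrl and shSigma cells. For the interaction 1210 of 14175 passed it. The shares of all genes are not given for the other counts of this paragraph. At an unadjusted p under 0.05, edgeR gave 22 members for culture in shSigma cells and 11 for the interaction, and DESeq2 20 and 9. DESeq2 called 3 for the interaction, and the GC-content offset 9. That offset moved the median to -0.18 in adherent cells and to 0.20 for culture in shSigma cells. The interaction median was 0.095 without a filter, and the sphere median was -0.15 with the 40 nearest genes subtracted. Leaving out single libraries gave 13 to 22 calls in adherent cells (medians -0.27 to -0.15), 22 to 25 in spheres (-0.099 to -0.015), 12 to 21 for culture in shCtrl cells (0.00042 to 0.077), 13 to 25 in shSigma cells (0.071 to 0.10) and 0 to 8 for the interaction (0.031 to 0.11). The 13 calls in adherent cells came without shCtrl replicate 2 or shSigma replicate 1, the 12 without adherent shCtrl replicate 2, and the 0 without shSigma sphere replicate 1, where edgeR gave 7 at an unadjusted p under 0.05. The adherent median was -0.15 without shCtrl replicate 1 and -0.18 without shSigma replicate 1. Members that changed direction and were called before or after were PMPCA (-0.070 and -0.10), PMPCB (-0.19 and -0.29) and CHCHD3 (-0.43 and -0.37) with the nearest genes subtracted, in adherent cells and spheres, and TIMM17A (0.24), TIMM23 (0.18) and TIMM44 (-0.19) for culture in shCtrl cells with the GC-content offset. Leaving a group with 2 libraries rests on their spread alone. The cause of these shifts was not tested. Stricter thresholds aside, 11 of 23 adherent calls and 15 of 25 sphere calls were kept in every alternative fit that tested the gene. The same held for 6 of 18 and 8 of 18 culture calls in shCtrl and shSigma cells and 0 of 5 interaction calls. The 11 and the 15 include DNAJC15, whose call is a description and no test. With at least 10 counts required in every library DNAJC15 was not tested. Genes at a few counts, such as TOMM20L, are limited by depth.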
